A study of Mus musculus with 25 samples.

Results

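The 6 genes Cpa3, Alox5ap, Muc13, Lat2, Clec10a and Cd163 were followed over 25 arrays of sorted mouse thymocytes. They were chosen because they stood among the largest falls in both groups of old cells relative to young cells, out of 15533 genes with a named and detected probe. That choice used the arrays of young and old cells, so differences between those groups are given as a description, without a test. Of 13 probes annotated to the 6 genes, 12 passed the filter on detection. The probe with the highest mean stood for each gene.

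The series compared thymocytes that lack CD4, CD8 and CD3 and carry CD25. Old cells without competition (n = 9) were F1(WB x B6/Ly5.1) cells taken from Rag2-/-γc-/-KitW/Wv hosts, which the labels call non-competitive; 1 of these samples has no cell type label, and the others are called donor-derived TN2/3 cells. Old cells with competition (n = 6) carried CD45.1, had a B6/Ly5.1 background and donor origin, and came from wild-type hosts called competitive. Young cells (n = 6) were the C57BL/6 hosts' own TN2/3 cells, marked by CD45.2. TN3 cells (n = 2, CD44-) and TN2 cells (n = 2, CD44+) of wild-type B6/Ly5.1 background served as stage controls. The labels give neither the age of the animals nor the time the cells had spent in the thymus, and whether each sample is a separate mouse is not stated, so p-values reflect only the spread among these samples.

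Progenitors entering the thymus still carry genes of other blood lineages. These genes are shut down as the cells pass from the TN2 stage, where Kit and CD44 are present, to the TN3 stage, at which T cell receptor beta genes rearrange. Cpa3 encodes carboxypeptidase A3, a protease stored in mast cell granules that is also transcribed in early haematopoietic progenitors. Alox5ap encodes FLAP, which hands arachidonic acid to 5-lipoxygenase (Alox5) in the first step of leukotriene synthesis. Muc13 encodes a transmembrane mucin, and Lat2 encodes NTAL, an adaptor related to LAT that is phosphorylated downstream of the IgE receptor and Kit. Clec10a encodes a C-type lectin that binds galactose-type sugars, and Cd163 a scavenger receptor for haptoglobin-haemoglobin complexes, both best known from macrophages and dendritic cells.

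RefSeq promoter windows of GRCm38.p6, from 250 bases before to 50 bases after the start site, were found for 3 of the 6 genes. These were Cpa3, Muc13 and Cd163, and every window found is printed. They were also the 3 members with the largest differences between TN3 and TN2 cells, given further on. Those differences played no part in which windows were found. The capitals mark GATAA or its reverse complement TTATC, the core letters bound by GATA factors. The Cpa3 window lies at chr3:20242132-20242431 on the minus strand, the Cd163 window at chr6:124304401-124304700 on the plus strand, and the windows of Muc13's pair of start sites at chr16:33793787-33794086 and chr16:33794239-33794538 on the plus strand.
Cpa3: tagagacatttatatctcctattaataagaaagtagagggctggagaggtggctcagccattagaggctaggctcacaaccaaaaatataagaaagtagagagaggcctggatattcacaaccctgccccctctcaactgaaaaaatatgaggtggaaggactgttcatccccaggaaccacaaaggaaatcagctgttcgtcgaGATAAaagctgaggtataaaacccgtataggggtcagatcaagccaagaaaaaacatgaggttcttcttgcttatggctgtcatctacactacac
Cd163: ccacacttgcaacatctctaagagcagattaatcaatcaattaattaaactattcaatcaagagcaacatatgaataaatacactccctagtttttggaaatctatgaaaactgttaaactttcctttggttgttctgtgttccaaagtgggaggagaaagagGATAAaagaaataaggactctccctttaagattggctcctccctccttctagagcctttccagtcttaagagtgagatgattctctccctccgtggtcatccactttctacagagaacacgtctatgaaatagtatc
Muc13, first start site: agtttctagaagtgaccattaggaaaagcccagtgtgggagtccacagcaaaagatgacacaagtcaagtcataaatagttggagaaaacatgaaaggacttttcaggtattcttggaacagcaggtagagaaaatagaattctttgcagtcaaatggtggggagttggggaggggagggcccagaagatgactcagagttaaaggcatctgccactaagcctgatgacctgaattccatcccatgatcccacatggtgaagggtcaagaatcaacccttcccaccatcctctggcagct
Muc13, second start site: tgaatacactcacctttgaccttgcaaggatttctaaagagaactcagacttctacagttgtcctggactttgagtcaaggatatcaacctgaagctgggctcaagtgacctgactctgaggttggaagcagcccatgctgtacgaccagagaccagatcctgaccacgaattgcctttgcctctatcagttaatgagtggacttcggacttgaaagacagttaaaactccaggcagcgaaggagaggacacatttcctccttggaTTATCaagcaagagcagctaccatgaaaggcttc
GATAA, searched on both strands, was found in 3 of these 4 windows and in 25.4% of 32851 RefSeq windows of this length. It began 45 bases before the Cpa3 start site and 87 bases before the Cd163 start site, and lay 16 bases after the second Muc13 start site. The letters CANNTG, the general E-box, were found in 4 of 4 windows and in 72.3% of all windows. These matches describe letters and were not tested for binding. Alox5ap, Lat2 and Clec10a had no entry.

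The name mast cell gene was checked against 10 defining mast cell markers. Of these, only Hdc, Cma1 and Fcer1a were detected (detection p below 0.05) on at least 3 of the 25 arrays, namely on 24, 18 and 8. The mean log2 level of Hdc was 5.57 in both young and TN2 cells and 4.82 in TN3 cells. In old cells it was 5.05 without and 4.70 with competition. Limma called no difference of Hdc between groups. The protease genes Mcpt1, Mcpt2, Mcpt4 and Tpsb2 were detected on 0 arrays, Tpsab1 and the IgE receptor beta chain gene Ms4a2 on 1 array each, and Mrgprb1 on 2. The summed linear level of the 3 measured markers ran between 55.3 and 155 in old cells without competition, between 63.4 and 78.7 with competition, and was 65.2 to 234 in young cells, 66.6 to 84.9 in TN3 cells and 75.1 to 108 in TN2 cells. The groups overlapped in that sum. Fcer1g, the gamma chain that the IgE receptor shares with other Fc receptors and that is no defining marker here, was detected on 0 arrays of old cells without competition, 1 with competition, 6 of young, 1 of TN3 and 2 of TN2 cells. Of the 6 proteases among the defining markers Cma1 was the 1 detected on more than 1 array, and it was detected on 0 TN2 arrays, where Cpa3 was highest. The 6 genes are therefore called here by their names.

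**Figure D1:**
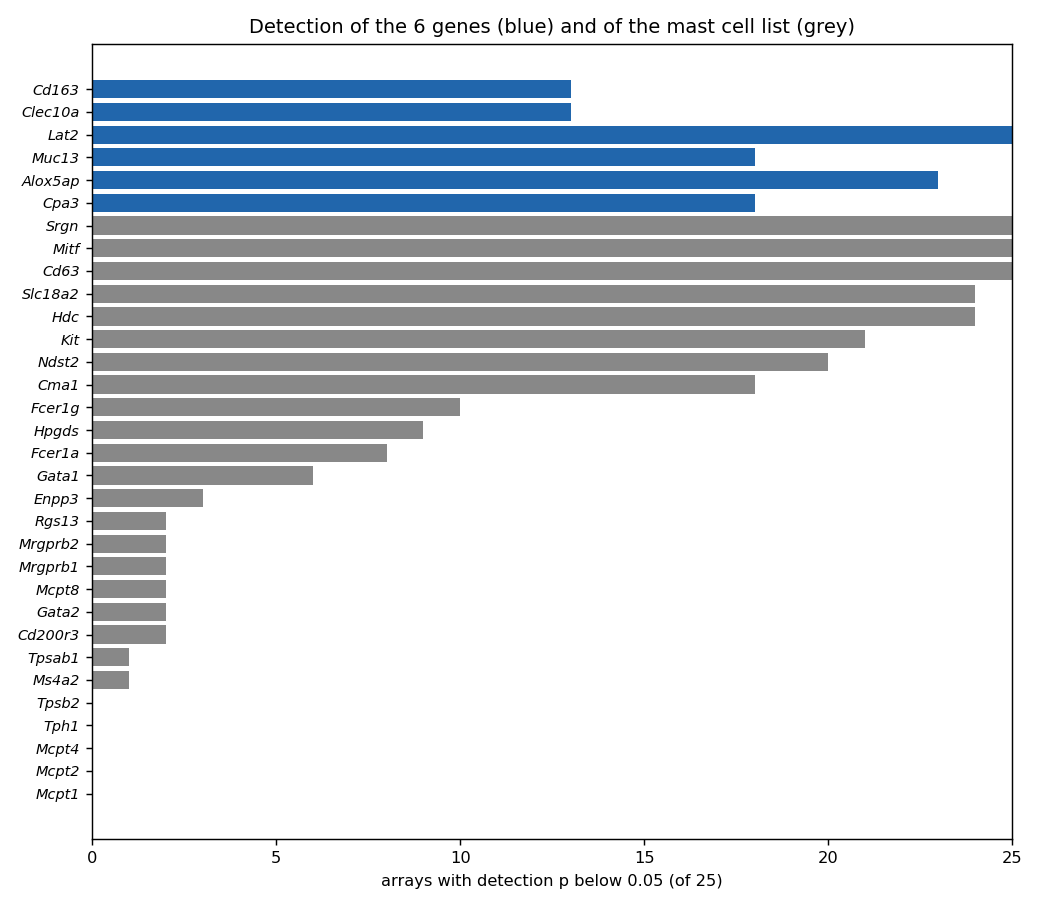
Number of the 25 arrays on which each gene was detected (detection p below 0.05, best probe of each listed gene), for the 6 genes in blue and for the wider mast cell list in grey. Lat2 was detected on 25 arrays and Cpa3 on 18, whereas Mcpt1, Mcpt2, Mcpt4 and Tpsb2 were detected on 0.

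Between 41.1% and 45.7% of probes were detected on arrays of old cells without competition, 46.8% to 49.4% with competition, 46.7% to 50.1% in young cells, 43.1% to 44.2% in TN3 cells and 43.9% to 44.6% in TN2 cells. Chips 2 and 4 each held 3 arrays of the old group with competition and 3 of young cells; the TN3 and TN2 arrays lay on chips 3 and 5, and old cells without competition on chips 1 and 5. Young cells shared no chip with TN3 or TN2 cells. Old cells with competition shared none with TN3 cells, and old cells without competition none with young cells. Chip and group cannot be told apart in these comparisons. Array 6 of old cells with competition stood apart, with 2304 genes more than 1 log2 unit away from the average of the other arrays in the group, against 85 to 185 genes when each of those was treated alike; its Cd4 level was 8.86, against 4.55 to 5.31 on them. Differences of the 6 genes that rest on it are given with and without it. Of the calls of listed pathway genes named further on that rest on it, 5 against TN3 cells and 11 against young cells were kept without it and 1, that of Cd164, was lost. Without it 2 listed genes gained a call against TN3 cells, Mgst2 and Stab1, and 1 against young cells, Mgst2.

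All 6 genes were detected on every young and every TN2 array. In old cells without competition 2 to 6 of the 6 were detected per array, in old cells with competition 1 to 5, and in TN3 cells 4 and 5. These are bulk samples, so fewer cells that carry a transcript and less transcript per cell cannot be told apart. The levels given from here on are log2 values after background correction and quantile normalization, on which 1 unit is a 2-fold difference and the floor lies near 4.1; levels of different probes are not set against each other.

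**Figure D2:**
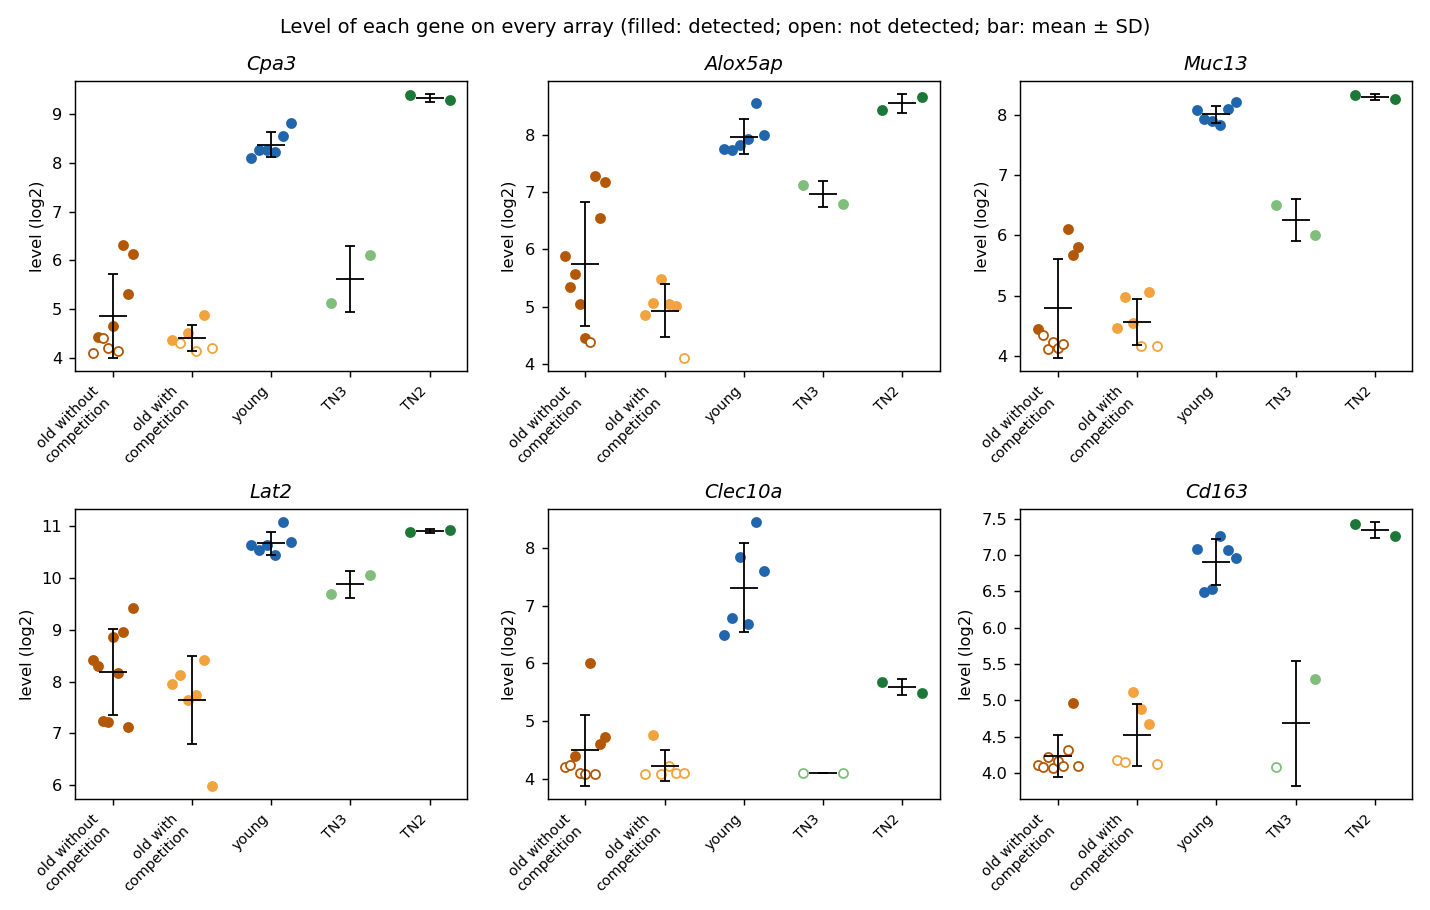
Level (log2) of each of the 6 genes on every array, by group, with filled points for arrays that detected the gene, open points for arrays that did not, and bars for the group mean ± SD. Young and TN2 arrays sit at the top in every panel except Clec10a, where the TN2 arrays at 5.49 and 5.68 sit below all 6 young arrays.

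Cpa3 ranged from 4.09 through a median of 4.43 to 6.33 in old cells without competition, from 4.14 through 4.34 to 4.87 with competition, and from 8.11 through 8.27 to 8.81 in young cells. It stood at 5.13 and 6.10 on the TN3 arrays and at 9.39 and 9.29 on the TN2 arrays. The old and TN3 arrays were thus low and the TN2 arrays highest, with young cells in a narrow band below them and no overlap with either side. Between stages, Cpa3 fell by 3.72 ± 0.56 (log2 ± SE) in TN3 relative to TN2 cells, the second largest fall of all genes (limma, adjusted p = 0.000535). The difference was -3.19 within chip 3 and -4.26 within chip 5. The young level lay 0.97 below TN2 (-0.97 ± 0.46, 95% interval -1.91 to -0.02, adjusted p = 0.403), which did not pass. Without background correction the same difference was -0.83 and passed (adjusted p = 0.0232), and in the authors' deposited log2 values it was -0.83 as well (adjusted p = 0.0242). All 3 Cpa3 probes put young cells below TN2 without overlap, by 0.75 to 1.03.

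Muc13 ranged from 4.12 through 4.35 to 6.10 in old cells without competition, from 4.17 through 4.51 to 5.06 with competition, and from 7.84 through 8.00 to 8.21 in young cells. TN3 arrays read 6.50 and 6.00 and TN2 arrays 8.33 and 8.26. Young and TN2 arrays lay within 0.5 log2 units of each other, and the TN3 arrays about midway between these and most old arrays. The TN3 level was 2.04 ± 0.53 lower than TN2 (-2.04, adjusted p = 0.0602), which did not pass here but passed under 6 alternatives, with adjusted p from 0.000194 to 0.0410. The difference was -2.25 within chip 3 and -1.83 within chip 5. The other Muc13 probe was detected on both TN2 arrays and on 0 of the 2 TN3 arrays. Young cells differed from TN2 by -0.29 ± 0.43 (95% interval -1.19 to 0.61, adjusted p = 0.904); the other probe gave 0.67, the opposite sign.

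Alox5ap ranged from 4.39 through 5.57 to 7.28 in old cells without competition, from 4.11 through 5.04 to 5.49 with competition, and from 7.73 through 7.87 to 8.56 in young cells. It stood at 7.12 and 6.80 in TN3 cells and at 8.43 and 8.66 in TN2 cells. Old cells without competition were the most spread group, reaching above both TN3 arrays, while all arrays with competition lay below TN3. The TN3 level was lower than TN2 on both chips, but the difference of -1.59 ± 0.68 did not pass (adjusted p = 0.387). Young cells differed from TN2 by -0.59 ± 0.56 (95% interval -1.75 to 0.57, adjusted p = 0.793), with 1 young array between the TN2 arrays.

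FLAP works with 5-lipoxygenase, and Alox5 itself stayed near the floor. Its mean was 4.38 ± 0.23 (SD, n = 9) in old cells without competition, 4.20 ± 0.06 (n = 6) with competition, 4.20 ± 0.13 (n = 6) in young cells, 4.30 ± 0.08 (n = 2) in TN3 cells and 4.13 ± 0.00 (n = 2) in TN2 cells. It was detected on 4, 0, 2, 1 and 0 arrays of these groups, so no array group with high Alox5ap had a high Alox5 reading. Of 17 genes of leukotriene synthesis and its receptors, 15 were measured. Limma called 0 of them in young against TN2 cells and 0 in TN3 against TN2 cells, with 1 at an unadjusted p below 0.05 in each. Of all 15533 genes, these comparisons called 1.47% and 1.17%, with 1844 and 1700 at an unadjusted p below 0.05. So few listed genes cannot be told from that share. Dpep2, which converts leukotriene D4 to E4, was called 0.65 ± 0.16 lower in young than in TN3 cells (-0.65, adjusted p = 0.0210) and 0.61 ± 0.16 lower in old cells with competition than in TN3 cells (-0.61, adjusted p = 0.0331). Mgst2, a microsomal glutathione transferase that can also make leukotriene C4, fell by 1.28 ± 0.26 in old cells without competition relative to young cells (adjusted p = 0.00269). With competition it was called only when array 6 was left out, at -1.04 against young and -1.09 against TN3 cells (adjusted p = 0.0136 and 0.0492), in place of -0.78 and -0.83 (adjusted p = 0.206 and 0.330). Ltc4s, the leukotriene C4 synthase of mast cells, was detected on 2 of 25 arrays.

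Lat2 ranged from 7.12 through 8.30 to 9.42 in old cells without competition, from 5.99 through 7.84 to 8.42 with competition, and from 10.5 through 10.6 to 11.1 in young cells. TN3 arrays stood at 9.69 and 10.1 and TN2 arrays at 10.9 on both. Young cells spanned the TN2 arrays, and every old array lay below both TN3 arrays. The lowest reading, 5.99, came from array 6 of old cells with competition. TN3 differed from TN2 by -1.03 ± 0.65 (adjusted p = 0.615) and young cells from TN2 by -0.24 ± 0.53 (95% interval -1.33 to 0.86, adjusted p = 0.944); neither passed. Of the other 2 Lat2 probes, 1 moved with this one in young against old cells and the other stayed between 4.14 and 4.35 in all group means.

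NTAL acts in the pathways of B cells and mast cells that use Syk and Btk, as LAT does in T cells with Zap70, and 14 of 18 listed genes of this kind were measured. Btk, a Tec-family kinase, was not detected in TN3 cells and was at least 2.35-fold lower there than in TN2 cells (adjusted p = 5.97e-05). It was also 0.63 ± 0.14 lower in young than in TN2 cells (-0.63, adjusted p = 0.0197). In young against TN3 cells Btk and Plcg2, a phospholipase of the same pathway, were called higher, by at least 1.51-fold (adjusted p = 0.00410) and 2.41-fold (adjusted p = 0.0103). Relative to young cells, Btk, Plcg2 and Gab2 fell and Zap70, the T cell kinase that acts with LAT, rose in both old groups, each group being set against the same 6 young arrays. Zap70 differed by 0.73 ± 0.19 without competition (adjusted p = 0.0176) and by 1.03 ± 0.21 with competition (adjusted p = 0.00528). In each old group 10 of the 14 genes did not pass, Syk, Lat and Lcp2 among them. Over all genes, 8.93% without and 2.92% with competition were called, 5.76% and 2.5% as lower. Lat itself was 0.66 ± 0.18 higher in old cells with competition than in TN3 cells (adjusted p = 0.0390). The TN3 arrays were apart, at 8.15 on chip 5 and 7.58 on chip 3. Relative to young cells Lat did not pass in either old group, at -0.17 without and 0.09 with competition (adjusted p = 0.460 and 0.912).

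Clec10a ranged from 4.08 through 4.23 to 6.02 in old cells without competition, from 4.08 through 4.10 to 4.76 with competition, and from 6.49 through 7.20 to 8.46 in young cells. It was not detected on either TN3 array (4.10 and 4.09) and stood at 5.68 and 5.49 on the TN2 arrays. It was the member for which every young array exceeded both TN2 arrays, and young cells were also most spread for it (SD 0.78). The young arrays had been used to choose genes that are high in young cells, which favours a high young value. The young mean was 3.32-fold above TN2 (1.73 ± 0.44 log2, 95% interval 0.83 to 2.64, adjusted p = 0.0436), in a comparison that called 1.47% of all genes and 0.856% as higher. This call was lost without young array 3, 5 or 6 (adjusted p = 0.0835, 0.0686 and 0.0717), without TN2 array 1 or 2 (0.140 and 0.254), without the detection filter (0.0577), with array weights (0.141) and with only these 2 groups in the fit (0.147). The TN3 level was at least 2.47-fold below TN2, which did not pass (adjusted p = 0.246).

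Cd163 ranged from 4.07 through 4.11 to 4.97 in old cells without competition, from 4.12 through 4.43 to 5.11 with competition, and from 6.49 through 7.01 to 7.25 in young cells. It stood at 4.07 and 5.29 on the TN3 arrays, of which only the second detected it, and at 7.42 and 7.26 on the TN2 arrays. Young and TN2 arrays formed a high set with the TN2 pair just above, and all others were low. Cd163 fell by 2.66 ± 0.36 in TN3 relative to TN2 cells (adjusted p = 0.000171), with differences of -1.97 within chip 3 and -3.35 within chip 5. Young cells differed from TN2 by -0.45 ± 0.29 (95% interval -1.05 to 0.16, adjusted p = 0.621). All these values rest on 1 probe. The other Cd163 probe did not pass the detection filter: its group means lay between 4.14 and 4.19, and only 1 array, of young cells, detected it.

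Clec10a and Cd163 are macrophage and dendritic cell genes, so those markers were read beside them. Of 17 macrophage and monocyte markers 8 were measured; C1qb, C1qc and Siglec1 were detected on 0 arrays, and the mannose receptor gene Mrc1, Fcgr1 and Spic on 1 array each, whereas Marco was detected on 23, the lysozyme genes Lyz1 and Lyz2 on 21 and 20, and Cd68 on 18. Lyz1 and Lyz2, near-identical genes whose probes may not tell them apart, were the 2 of the 8 called in both old groups relative to young cells. Lyz1 differed by -1.50 ± 0.23 without and -2.03 ± 0.25 with competition (adjusted p = 0.000166 and 2.28e-05), and Lyz2 by -1.13 ± 0.19 and -1.57 ± 0.20 (adjusted p = 0.000310 and 2.80e-05). The summed linear level of the 8 macrophage markers lay between 171 and 251 in old cells without competition, 164 to 179 with competition, 240 to 322 in young cells, 226 to 227 in TN3 cells and 257 to 373 in TN2 cells. That of 8 measured dendritic cell markers of 11 was 194 to 257, 221 to 285, 274 to 470, 236 to 286 and 224 to 315 in the same groups. Zbtb46, Cd209a and Xcr1 were detected on 0 arrays, whereas H2-Ab1 and Siglech were detected on 25 and Cd74 on 18. The class II gene H2-Ab1 was the 1 dendritic cell marker called in both old groups relative to young cells, at -2.04 ± 0.23 without and -1.81 ± 0.25 with competition (adjusted p = 2.83e-06 and 6.49e-05). Mgl2, the closest relative of Clec10a, had means between 4.42 and 4.87 in all 5 groups. The macrophage sum was higher without overlap in young cells than in old cells with competition and in TN3 cells, and lower in TN3 than in TN2 cells; the dendritic cell sum was higher without overlap in young cells than in old cells without competition. The part of these markers in the levels of Clec10a and Cd163 was not tested. Sums of 3 other lists, in which bright markers weigh most, separated young cells from both old groups and TN3 from TN2 cells without overlap. The erythroid and megakaryocytic sum, over 12 measured markers of 16, was between 276 and 561 in old cells without competition, 283 to 394 with competition, 657 to 1436 in young cells, 314 to 689 in TN3 cells and 1604 to 1863 in TN2 cells. The granulocyte sum, over 9 of 11, was 169 to 199.9, 175 to 191, 200.4 to 313, 173 to 185 and 291 to 372 in the same groups. Mpo was detected on 0, 2, 6, 0 and 2 arrays of these groups, whereas Elane was detected on 8, 6, 4, 0 and 0. The sum of early progenitor and TN2 markers, over 15 of 17, was 303 to 418, 289 to 356, 642 to 926, 387 to 407 and 1087 to 1093. Relative to young cells, limma called 3 of the 12 erythroid and megakaryocytic markers lower in each old group. The median difference of that list was 0.06 without and -0.07 with competition. It called 1 of the 9 granulocyte markers lower in each, Mpo, with list medians of 0.05 and 0.01. Of the 15 early progenitor and TN2 markers it called 9 lower without and 8 with competition, with medians of -0.54 and -0.64. Over all genes, 5.76% and 2.5% were called lower. The part of these lists was not tested either.

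The young level was next compared with TN2 for all 6 genes together. The genes were chosen as high on these young arrays, which favours a young level near or above TN2. Young cells also shared no chip with TN2 or TN3 cells. Clec10a was the 1 member called, and 2 had an unadjusted p below 0.05. Cpa3, Muc13 and Cd163 lay below TN2 and Clec10a above it without overlap; groups did not overlap for 15% of all genes. The 5 differences other than that of Clec10a were negative, from -0.97 to -0.24, but those of Alox5ap, Muc13, Lat2 and Cd163 turned positive (0.04 to 0.32) when arrays were scaled to a common median, which moved the median of all genes by 0.19. Taking TN3 as 0% and TN2 as 100%, the young mean stood at 63.5% of the way for Alox5ap, 74.1% for Cpa3, 77.2% for Lat2, 83.3% for Cd163 and 86.1% for Muc13. These positions rest on 2 arrays at each end, of which 1 TN3 array did not detect Cd163. They are taken on log2 values and are raised by the choice of the genes. With common-median scaling, the genes that turned positive would lie beyond 100%. The positions describe these genes and do not stage the young cells. No position is given for Clec10a, which neither TN3 array detected.

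**Figure D3:**
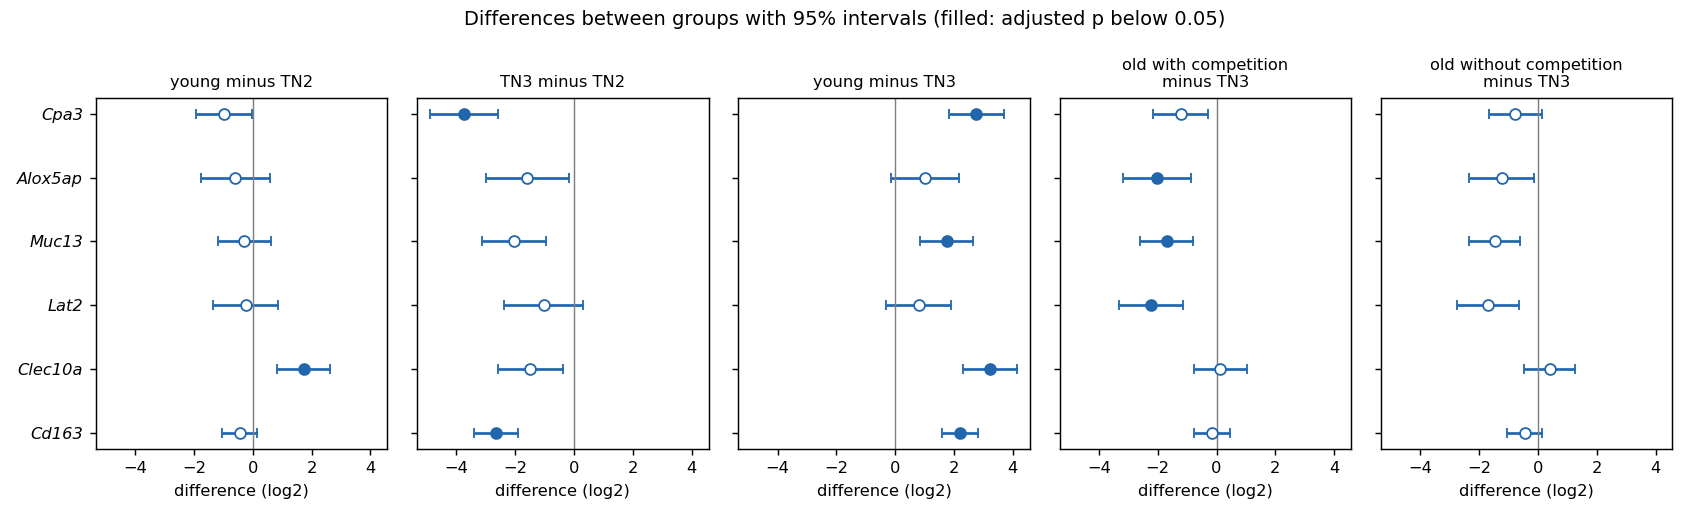
Difference between groups (log2, fitted value with its 95% interval) for each gene in 5 comparisons, with filled points where the adjusted p was below 0.05. Against TN2, only Clec10a of the young cells was called, at 1.73, and against TN3 the young cells were higher for all 6 genes; no TN3 array detected Clec10a, so its fitted values against TN3 are no exact sizes.

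The rule by which the genes were chosen did not use the TN3 and TN2 arrays. The 6 members were, however, picked with earlier results of these data known, so this comparison cannot be taken as independent of the choice. All 6 genes were lower in TN3 than in TN2 cells without overlap, as were 18.8% of all genes, and on both chips. Cpa3 and Cd163 were called, in a comparison that called 1.17% of genes and 0.785% as lower. The median difference was -1.81 over the 6 genes and 0.00 over all genes. Both calls held without any single one of the 4 arrays (adjusted p at most 0.0198 for Cpa3 and 0.00924 for Cd163). With only these 4 arrays in the fit, limma called 0 genes, and the adjusted p was 0.175 for Cpa3 and 0.369 for Cd163.

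Young cells exceeded TN3 cells without overlap for all 6 genes, as did 10.6% of all genes; this direction too is in part fixed by the choice. Limma called 4 of the 6 higher, against 3.67% of genes called and 2.49% called as higher. Cpa3 was higher by 2.76 ± 0.46 (adjusted p = 0.00122), Cd163 by 2.21 ± 0.29 (adjusted p = 0.000201), and Clec10a by at least 8.20-fold (adjusted p = 0.000236). Muc13 was higher by 1.75 ± 0.43 (adjusted p = 0.0228), a call lost without TN3 array 1 (adjusted p = 0.0564) or 2 (0.261). Alox5ap (1.00 ± 0.56, adjusted p = 0.412) and Lat2 (0.80 ± 0.53, adjusted p = 0.518) did not pass. With only these 2 groups in the fit both passed (adjusted p = 0.0444 and 0.0483), and Alox5ap passed when arrays were scaled to a common median (1.80, adjusted p = 0.0195).

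Both old groups were set against TN3 cells to ask whether their low levels went below that stage. The old arrays had been used to choose genes that are low in old cells, which again favours this direction. With competition, Lat2 was lower than TN3 by 2.23 ± 0.53 (-2.23, adjusted p = 0.0197), Alox5ap by 2.03 ± 0.56 (-2.03, adjusted p = 0.0432) and Muc13 by 1.69 ± 0.43 (-1.69, adjusted p = 0.0299). The comparison called 3.78% of genes and 1.47% as lower, and its groups shared no chip. Without array 6 these 3 were still called, at -1.90, -1.86 and -1.61 (adjusted p = 0.0106, 0.0445 and 0.0285). Without TN3 array 1 or without TN3 array 2, 0 of the 6 were called. The second Lat2 probe that responded gave -0.22 in place of -2.23, with overlap between the groups. The second Muc13 probe was detected on 0 of the 2 TN3 arrays and could not show a level below them. Leaving out old array 1 or 4 ended the call of Muc13 (adjusted p = 0.0509 and 0.0557), and leaving out old array 1, 2, 4 or 5 that of Alox5ap (0.0563 to 0.0728). Cpa3 (-1.22 ± 0.46, adjusted p = 0.163), Clec10a (0.13 ± 0.44, adjusted p = 0.937, a fitted value with no TN3 array above background) and Cd163 (-0.16 ± 0.29, adjusted p = 0.862) did not pass, and the last 2 lay at or near the floor on 3 of their 4 TN3 readings; without array 6 these differences were -1.18, 0.15 and -0.08.

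Without competition, limma called 0 of the 6 genes against TN3 cells, where 2.36% of all genes were called; 3 had an unadjusted p below 0.05. Lat2 differed by -1.69 ± 0.51 (adjusted p = 0.0813), Muc13 by -1.47 ± 0.42 (adjusted p = 0.0614) and Alox5ap by -1.22 ± 0.54 (adjusted p = 0.267). Muc13 passed when old array 7, 8 or 9 was left out (adjusted p = 0.0164, 0.0368 and 0.0319), and Lat2 without array 9 (0.0420). The second responsive Lat2 probe gave -0.31 in place of -1.69, with overlap between the groups. Within chip 5, the 1 chip shared with TN3, the differences were -2.48 for Alox5ap, -2.31 for Muc13 and -1.60 for Lat2, and Alox5ap passed with the chip as a fixed term (-2.35, adjusted p = 0.0476). Cpa3 differed by -0.77 ± 0.44 (adjusted p = 0.443), Clec10a by a fitted 0.40 ± 0.42 (adjusted p = 0.742) and Cd163 by -0.45 ± 0.28 (adjusted p = 0.503).

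Relative to young cells, which is what the genes were chosen on, Cpa3 differed by -3.52 in old cells without competition and by -3.98 with competition, the largest fall of all genes in both. Muc13 differed by -3.23 and -3.45, Clec10a by -2.82 and -3.09, Lat2 by -2.49 and -3.03, Alox5ap by -2.22 and -3.03, and Cd163 by -2.66 and -2.38. No old array reached any young array for any of the 6; 2.14% of all genes without competition and 2.16% with competition were lower without overlap. Among called genes, 5.76% of all genes without competition and 2.5% with competition were lower, out of 8.93% and 2.92% called. The members nearest the edge of the choice were Alox5ap without competition, at rank 14 with -2.22 between Casp1 (-2.31) and Atp8b4 (-2.17), and Cd163 with competition, at rank 19 with -2.38 between Hoxa7 (-2.40) and Nkg7 (-2.36). Both differences share the young arrays, and old cells without competition shared no chip with young cells. Without array 6 of the old cells with competition, its 6 differences ran from -3.94 for Cpa3 to -2.30 for Cd163. Without background correction the differences were smaller, at -1.94 without and -2.09 with competition for Cpa3, -1.67 and -1.75 for Muc13, -1.31 and -1.42 for Clec10a, -2.20 and -2.60 for Lat2, -1.25 and -1.62 for Alox5ap, and -1.11 and -1.004 for Cd163.

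No difference between the old groups passed for any of the 6 genes. All 6 overlapped between the groups, whereas 0.708% of all genes did not, and limma called 0 of them, against 1.24% of all genes, with 1 at an unadjusted p below 0.05. Alox5ap had the largest difference, 0.81 ± 0.36 higher without competition (95% interval 0.05 to 1.56, adjusted p = 0.336). Cpa3 differed by 0.45 ± 0.30 (-0.16 to 1.07), Lat2 by 0.54 ± 0.34 (-0.17 to 1.26), Clec10a by 0.27 ± 0.28 (-0.31 to 0.86), Muc13 by 0.22 ± 0.28 (-0.36 to 0.80) and Cd163 by -0.29 ± 0.19 (-0.68 to 0.11). Without array 6 of the cells with competition the difference of Lat2 shrank to 0.21, and those of Alox5ap, Cpa3, Clec10a, Muc13 and Cd163 were 0.65, 0.42, 0.25, 0.14 and -0.36, with 0 of the 6 called. These groups shared no chip and also differed in donor background and in host. Competition, chip, background and host cannot be told apart here.

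Among the 9 arrays of old cells without competition, Cpa3, Alox5ap and Muc13 were high together on arrays 7, 8 and 9. The SD over the 9 arrays was 1.07 for Alox5ap, 0.86 for Cpa3, 0.83 for Lat2 and 0.82 for Muc13. Cpa3 read 6.33, 5.32 and 6.12 there and 4.09 to 4.64 on the other 6 arrays, and Muc13 read 6.10, 5.68 and 5.81 against 4.12 to 4.44. Alox5ap read 7.28, 6.54 and 7.17, against 4.39 to 5.89 on the other arrays. Arrays 7, 8 and 9 lay on chip 1 with arrays 1, 2 and 3, so the split ran within a chip. Lat2 did not follow it, at 8.95, 7.12 and 9.42, and Clec10a was highest on array 6 of chip 5 (6.02). Kit was at 5.08, 5.31 and 5.47 on arrays 7, 8 and 9, against 4.28 to 5.39 on the others, where array 4 gave the highest value. Array 1, the 1 sample with no cell type label, was not one of these 3; the labels of the other arrays were alike.

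**Figure D4:**
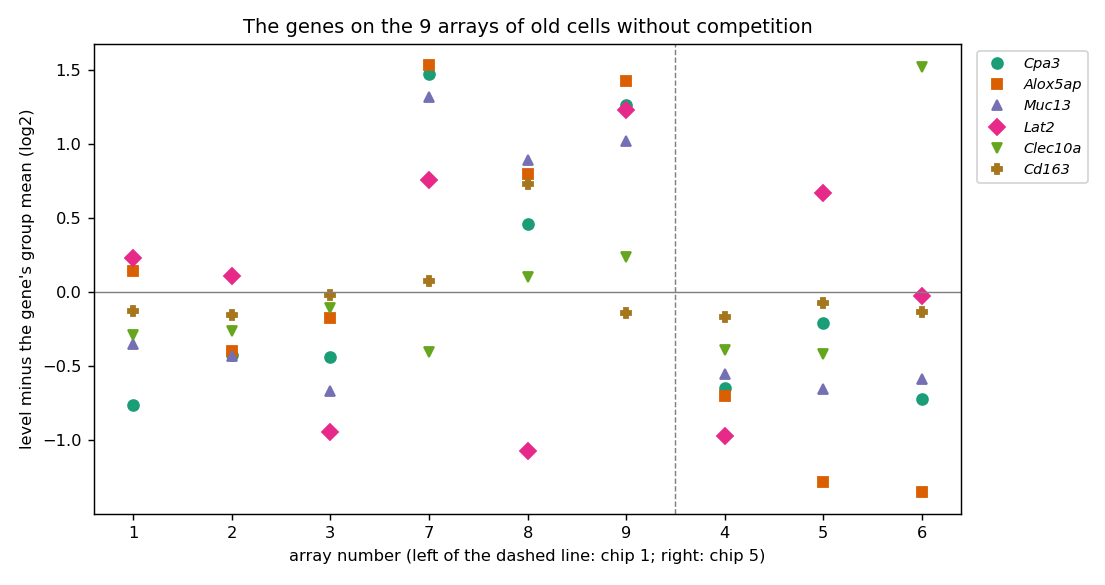
Level of each gene minus its mean over the 9 arrays of old cells without competition (log2), by array, with chip 1 left and chip 5 right of the dashed line. Cpa3, Alox5ap and Muc13 lie above 0 on arrays 7, 8 and 9, whereas Clec10a stands at the top on array 6.

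The likeness of 2 patterns was measured as the root mean square difference of their log2 values over the 25 arrays after each gene's own mean was subtracted. Among the 15 pairs of members, Cpa3 and Muc13 were closest (0.49), then Alox5ap and Muc13 (0.54), and Clec10a and Cpa3 were farthest apart (1.21). The other genes most like the mean of the 6 were Nfe2 (0.39), a transcription factor of the erythroid and megakaryocytic lineage, Igfbp4 (0.41) and Kit (0.50). Among genes other than the 6, Nfe2 was also nearest to Cpa3 (0.64) and to Muc13 (0.50), farther than these 2 were from each other. Among the same genes Nkg7 came nearest to Alox5ap (0.57), Scin to Lat2 (0.68), Emilin2 to Cd163 (0.47) and Mpo, the peroxidase of granulocyte progenitors, to Clec10a (0.76). The arrays share groups and chips, and genes with larger changes score less alike by construction. The 25 arrays include the young and old arrays on which the 6 genes were chosen. Likeness among the 6, and to other genes with large falls from young to old cells, is thus in part fixed by the choice. Nfe2 was such a gene, at -2.84 without and -2.70 with competition relative to young cells.

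Genes of the members' wider families were counted in the same fits. Of 27 listed mast cell genes 13 were measured. Kit fell by 1.92 ± 0.45 in TN3 relative to TN2 cells (adjusted p = 0.0283), the 1 listed gene called there, and Srgn, the core protein of granule proteoglycans, was 1.93 ± 0.35 higher in young than in TN3 cells (adjusted p = 0.00265). Kit, Srgn and Fcer1g, the shared gamma chain of Fc receptors, fell in both old groups relative to young cells and 10 of the 13 did not pass. Of all genes, 5.76% without and 2.5% with competition were called lower. Kit differed by -2.12 ± 0.24 without and -2.28 ± 0.26 with competition (adjusted p = 2.39e-06 and 6.04e-06), and Srgn by -1.62 ± 0.23 and -1.12 ± 0.25 (adjusted p = 4.07e-05 and 0.00987). The list's median was -0.04 without and -0.08 with competition, against 0.02 and 0.00 over all genes.

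Among 16 measured C-type lectins of 21 listed, limma called 3 lower without and 2 lower with competition relative to young cells. Over all genes the shares called lower were 5.76% and 2.5%. Clec4d was not detected in either old group and was at least 1.50-fold lower without (adjusted p = 2.30e-05) and 1.53-fold lower with competition (adjusted p = 8.03e-05). Clec2d, a ligand of inhibitory NK cell receptors, was at least 2.83-fold lower without competition (adjusted p = 8.30e-05) and differed by -1.20 ± 0.26 with it (adjusted p = 0.00904). Clec2i differed by -0.84 ± 0.18 without competition (adjusted p = 0.00292). Clec4d was also at least 1.49-fold higher in young than in TN3 cells (adjusted p = 0.0105). Among 7 measured mucins and sialomucins of 12, Selplg, the P-selectin ligand, differed by -0.46 ± 0.11 and -0.55 ± 0.12 (adjusted p = 0.00703 and 0.00715). Spn, which encodes CD43, fell by 1.46 ± 0.40 without competition (adjusted p = 0.0223), and Cd164 was 0.33 ± 0.09 higher with competition (adjusted p = 0.0327; 0.27 and adjusted p = 0.0592 without array 6). Muc1 was 0.50 ± 0.14 lower in old cells with competition than in TN3 cells (-0.50, adjusted p = 0.0494). Its means there, 4.27 and 4.77, lay near the floor. Of the 4 Muc1 probes, another was detected on more arrays, but on 0 TN3 arrays, so it could not show a level below them.

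Of 16 scavenger and haemoglobin handling genes 11 were measured. The ferritin light chain gene Ftl1 was 1.22 ± 0.29 higher in young than in TN2 cells (adjusted p = 0.0282) and 1.61 ± 0.29 higher than in TN3 cells (adjusted p = 0.00225). It was also 1.57 ± 0.29 higher in old cells with competition than in TN3 cells (adjusted p = 0.00408), and fell by 0.61 ± 0.19 in old cells without competition relative to young cells (adjusted p = 0.0430). The ferritin heavy chain gene Fth1 fell in both old groups relative to young cells, by 0.40 ± 0.10 without and 0.45 ± 0.11 with competition (adjusted p = 0.0111 and 0.0185). Of 10 measured cyclooxygenase and other lipoxygenase genes, Alox12 was 0.85 ± 0.21 lower in young than in TN2 cells (-0.85, adjusted p = 0.0363) and Alox12b 0.57 ± 0.16 lower in old cells with competition than in TN3 cells (-0.57, adjusted p = 0.0458). Of 7 measured metallocarboxypeptidases, the relatives of Cpa3, limma called 0 in each of the 8 comparisons, and 0 had an unadjusted p below 0.05. These comparisons called 1.17% to 8.93% of all genes, and 1700 to 3327 of 15533 genes had an unadjusted p below 0.05.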

How the data were processed

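Per the labels' protocols, RNA was extracted with RNAzol B and biotin-labelled cRNA was made with an Ambion MessageAmp kit for Illumina arrays. The authors deposited a table of non-normalized intensity values of 46237 probes on 25 arrays of 5 chips, with a detection p-value beside each deposited intensity; its test, the software and the build are not given in sources used here. A second deposited table held log2 values whose medians were all 6.51 and whose columns differed by at most 0.01 at the same rank, as quantile normalization gives, and it served as an alternative.

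Intensities were normalized with neqc (limma 3.58.1, R 4.3.3, offset 16), with the background taken from the detection p-values, which lets dim probes approach a floor, so folds of dim genes are understated. Probes detected (p below 0.05) on at least 3 arrays were kept (30174), and the kept probe with the highest mean stood for each of 15533 genes. In the platform annotation, 1 gene symbol stood beside 35784 probes, several beside 0 and none beside 10453; 28620 were matched to a RefSeq gene by identifier and 2637 by transcript accession. All arrays entered 1 limma model of group means with chip as a random block (statmod 1.5.0; correlation 0.00457), with two-sided tests and Benjamini-Hochberg adjustment over all genes; called means adjusted p below 0.05. Where no array of a group detected a gene, its fold is a lower bound, taken against the lowest detected signal per array. The number of arrays limits the precision. The fit was tested on simulated data. The members, the gene lists and the rule for named genes were chosen with earlier results of these data known. That rule took the members, then up to 4 called genes per list and comparison. Casp1, Atp8b4, Hoxa7 and Nkg7 at the edge of the choice, and genes named for being detected or not, were chosen after their values were seen. Alternatives covered background, normalization, filter, chip, array weights, probe choice, samples in the fit and each array left out.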

Additional observations from a re-analysis of the deposited data

Results flagged for a closer look

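Dixon's test set the highest and lowest array of a group against its neighbours. It was run for each of the 6 genes in old cells without competition, old cells with competition and young cells, 18 groups in all. Chance flags about 1 in 20 groups of normally spread values, a rate that need not hold near the floor. In 5 of the 18 groups 1 array stood far from the others. Of these, Clec10a without and with competition and Cd163 without competition had medians near the floor, at 4.23, 4.10 and 4.11. Lat2 was at 5.99 on array 6 of old cells with competition, below the next value of 7.65; that array also stood apart over all genes. Clec10a was at 6.02 on array 6 of old cells without competition (next 4.73) and at 4.76 on array 2 of old cells with competition (next 4.22). Cd163 was at 4.97 on array 8 of old cells without competition (next 4.31), the 1 array of that group that detected it. Alox5ap was at 8.56 on young array 5 (next 8.00), and 6 of the 6 genes were above their group median on that array. What lies behind these readings was not tested.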

How the results depend on the processing

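Over the 6 genes' differences, 918 values under alternatives kept their direction and side of the threshold, 35 moved, 35 lost a call, 16 gained one and 10 changed sign. Of the last, those with arrays scaled to a common median were, in young against TN2 cells, Alox5ap 0.0436, Muc13 0.32, Lat2 0.28 and Cd163 0.13, then Cd163 0.0637 in old cells with competition against TN3, and Lat2 -0.035 between the old groups. With the mean of all kept probes, Muc13 was 0.19 in young against TN2 cells and -0.0241 between the old groups. Leaving out 1 array, Cd163 against TN3 ranged from -1.06 (without TN3 array 1) to 0.16 (without TN3 array 2) in old cells without competition and from -0.77 to 0.45 with competition, at the same arrays. None of these passed. The cause was not tested.

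Of the 6 genes, young against TN2 cells gave 2 called with no background correction or in the deposited log2 values, and 0 with no detection filter, array weights or only the groups compared. Young against TN3 gave 6 with only the groups compared and 5 with common-median scaling. TN3 against TN2 gave 0 with only the groups compared. Old cells with competition against TN3 gave 1 with common-median scaling, 1 with array weights and 0 with only the groups compared, and old cells without competition against TN3 gave 1 with chip as a fixed block. Leaving out 1 array gave 0 to 1 for young against TN2, 3 to 4 for young against TN3, 2 for TN3 against TN2, 0 to 3 and 0 to 2 for old cells with and without competition against TN3, and 0 between the old groups.

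Over all genes, common-median scaling called 1270 genes in young against TN2, 3122 in young against TN3, 85 in TN3 against TN2, 68 and 2970 in old cells without and with competition against TN3, 3417 between the old groups and 3937 in old cells without competition against young. It moved the median of all genes by 0.19, 0.25, -0.06, 0.04, 0.23, -0.22 and -0.19 in these comparisons. Array weights called 83 in TN3 against TN2, 182 in old cells without competition against TN3, 561 between the old groups, and 2142 and 1087 in old cells without and with competition against young. With only the groups compared there were 76 in young against TN2, 0 in TN3 against TN2, 26 in old cells with competition against TN3 and 2142 in old cells without competition against young; a fixed chip block gave 102 in old cells without competition against TN3, and no value where the groups share no chip. Leaving out 1 array gave 150 to 274 genes in young against TN2, the lowest without TN2 array 2, 127 to 193 in TN3 against TN2, and 108 to 337 between the old groups, lowest without array 4 and highest without array 6 of those with competition. It gave 153 to 585 in young against TN3, 125 to 400 in old cells without competition against TN3 and 95 to 1191 with competition, each lowest without TN3 array 2 and the last highest without array 6. Against young it gave 1025 to 1450 without and 331 to 643 with competition.

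No paired analysis was possible because the replicate numbers were given in accession order and pair no samples. Chip, in contrast, could serve as a block: TN3 and TN2 cells shared chips 3 and 5, and with chip as a fixed block 206 genes were called between them, with Cpa3 at -3.72 (adjusted p = 0.000553), Cd163 at -2.66 (0.000263) and Muc13 at -2.04 (0.0410). The TN3 and TN2 groups of 2 arrays borrow their spread from the others, and genes near the floor have understated differences.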
